A study of Sorghum propinquum with 2 samples.

Results

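The cellulose synthase (CesA) genes of *Sorghum propinquum*, a wild relative of grain sorghum that spreads by underground stems called rhizomes, were compared between a rhizome and a shoot. The family was taken as 8 listed locus IDs, and all 8 were present in both deposited tables, out of 24371 genes. The member list assigns Sb01g019720, Sb02g025020 and Sb03g034680 to the secondary wall, and Sb01g004210, Sb02g006290, Sb02g010110, Sb03g047220 and Sb09g005280 to the primary wall. The tables hold only IDs, lengths and values, so this assignment was taken as given and was not derived from them. For the same reason, whether the list holds every CesA gene could not be checked. All totals, shares and orders below cover these 8 genes only.

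Both RNA libraries came from a single vegetative clone of an unnamed accession with many tillers and vigorous rhizomes, grown in a greenhouse. One group is the rhizomes and the other the shoots, both frozen at the active tillering stage, with no treatment and no genotype difference between them. Each organ was represented by 1 library. No value therefore has an error between plants, no test between the organs is possible and no p-value is given. Reads assigned to genes numbered 16862624 for the rhizome and 17153968 for the shoot. All intervals are 95% intervals for counting error alone, and because the labels mention no molecular identifiers, reads may not be independent molecules. The organ labels could not be checked against marker genes, since the IDs were not paired with gene names.

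Cellulose is spun at the plasma membrane by complexes of CesA proteins, the catalytic subunits that join glucose into chains. Plants use one set of CesA subunits in the thin, extensible primary wall of growing cells. They use another set in the thick secondary wall that xylem vessels and fibres lay down after growth has stopped. In *Arabidopsis*, the secondary-wall subunits work together and loss of any one collapses the xylem, and in rice, loss of a secondary-wall subunit gives brittle stems.

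The secondary-wall CesA genes were abundant in the shoot and much lower in the rhizome. Their summed level was 570.4 RPKM in the shoot library and 19.96 RPKM in the rhizome library, where RPKM is reads per 1000 bases of listed gene length and per 1000000 reads of the library. The shoot total was thus 28.6-fold the rhizome total, which stood at 3.50% of it. The primary-wall genes together reached 695.5 RPKM in the shoot against 409.6 RPKM in the rhizome, a ratio of 1.70 in the same direction. Fewer cells of a type and less RNA per cell cannot be told apart in such bulk samples.

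**Figure D1:**
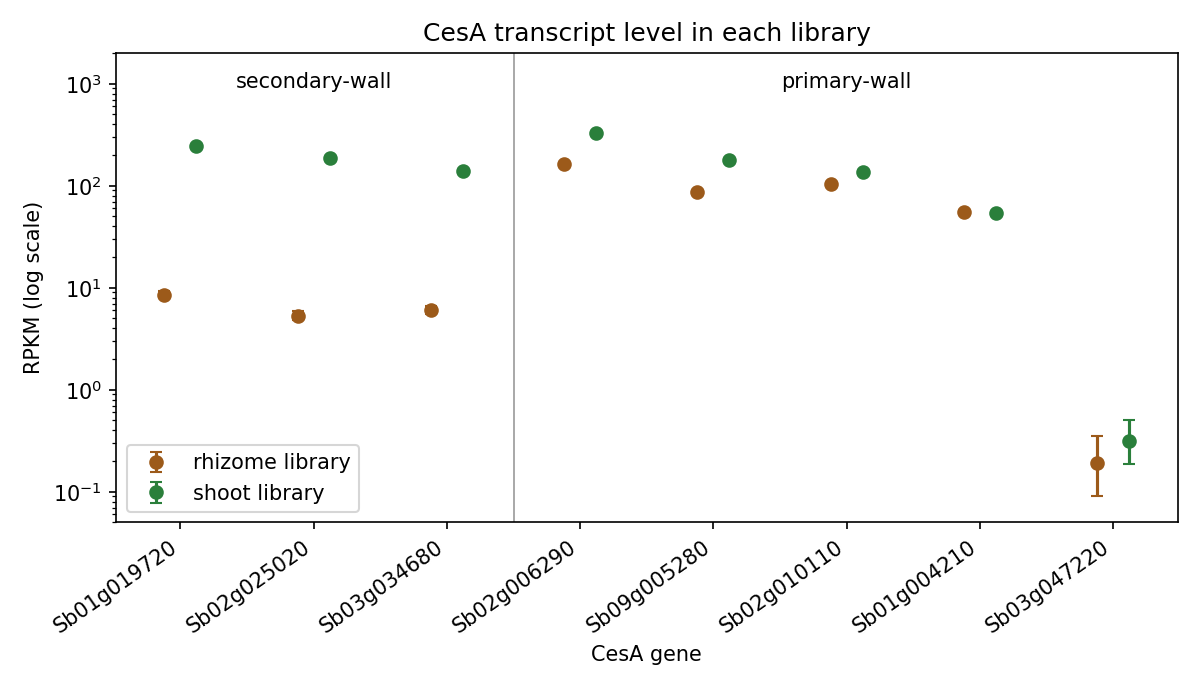
RPKM on a log axis for each CesA gene in the rhizome library (brown) and the shoot library (green), with 95% counting intervals that are hidden by most points. The 3 secondary-wall genes lie between 5.34 and 8.55 RPKM in the rhizome and between 138 and 243 RPKM in the shoot, and Sb03g047220 lies below 1 RPKM in both.

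Among the secondary-wall genes, Sb01g019720 had the highest RPKM in both libraries, although its rhizome reads were close to those of Sb03g034680 (541 and 533). It was listed with 541 reads and 8.55 RPKM (interval 7.85 to 9.30) in the rhizome, and with 15665 reads and 243 RPKM (240 to 247) in the shoot. The shoot level was 28.5-fold the rhizome level (26.1 to 31.1). Sb02g025020 had 380 reads and 5.34 RPKM in the rhizome against 13672 reads and 189 RPKM in the shoot. Its ratio of 35.4 (31.9 to 39.3) was the largest of the 8 members. Sb03g034680 had 533 reads and 6.07 RPKM in the rhizome against 12352 reads and 138 RPKM in the shoot, a ratio of 22.8 (20.9 to 24.9). For each of these genes the rhizome value was far below the shoot value, and the ranges of the values in the 2 libraries were far apart.

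These genes stood in the middle range of the listed genes in the rhizome and near the top of them in the shoot. Every listed gene had reads in the rhizome, the shoot or both, so the ranks are among detected genes. Ranked by RPKM among the 24371 genes, Sb01g019720 was at position 8269 in the rhizome and 272 in the shoot. Sb02g025020 was at 10839 and 378, and Sb03g034680 at 10111 and 516.

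The 3 ratios were of similar size but not equal within counting error. The ratio of Sb02g025020 was 1.24 times that of Sb01g019720 (1.09 to 1.42) and 1.55 times that of Sb03g034680 (1.36 to 1.77). The ratio of Sb01g019720 was 1.25 times that of Sb03g034680 (1.11 to 1.41). Library scaling cancels in these quotients, whose intervals are large-sample intervals of the log odds ratio of reads, and 13 such pairs were computed within the 2 wall classes. Whether quotients of this size would be seen again between plants is unknown.

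The balance among the secondary-wall genes was therefore partly kept between the organs. Sb01g019720 made up 42.8% of their summed RPKM in the rhizome and 42.7% in the shoot. Sb02g025020 made up 26.7% in the rhizome and 33.1% in the shoot, and Sb03g034680 made up 30.4% and 24.3%. As shares of reads, which ignore gene length, Sb01g019720 had 37.2% (34.7% to 39.8%) in the rhizome and 37.6% (37.1% to 38.0%) in the shoot, so no difference was detectable at this depth. The read shares of Sb02g025020 were 26.1% (23.9% to 28.5%) and 32.8% (32.3% to 33.2%), and those of Sb03g034680 were 36.7% (34.2% to 39.2%) and 29.6% (29.2% to 30.1%). The lower positions thus swapped, with Sb03g034680 above Sb02g025020 in the rhizome by a factor of 1.14 in RPKM (0.996 to 1.30, an interval that includes equal levels) and below it in the shoot, where Sb02g025020 was 1.36 times as high (1.33 to 1.40).

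The primary-wall genes were present at substantial levels in both organs, apart from Sb03g047220. Sb02g006290 was the most abundant of the 8 listed genes in either library. It had 14737 reads and 162 RPKM in the rhizome and 30260 reads and 328 RPKM in the shoot. Its shoot level was 2.02-fold the rhizome level (1.98 to 2.06). Sb09g005280 had 8526 reads and 87.6 RPKM in the rhizome and 17505 reads and 177 RPKM in the shoot, also 2.02-fold (1.97 to 2.07). The quotient of these 2 ratios was 1.0001 (0.968 to 1.03), so no difference between these ratios was detectable at this depth.

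The other primary-wall genes differed less. Sb02g010110 had 8573 reads and 104 RPKM in the rhizome and 11533 reads and 137 RPKM in the shoot, a shoot over rhizome ratio of 1.32 (1.29 to 1.36). Sb01g004210 had 4909 reads and 55.8 RPKM in the rhizome and 4797 reads and 53.6 RPKM in the shoot, a shoot over rhizome ratio of 0.961 (0.923 to 0.9998) that became 1.12 with median-of-ratios scaling, 1.08 with TMM scaling and 0.973 without the 100 most abundant genes of each library. The side of 1 on which it lies thus depends on a scaling that moves all genes alike. The ratio of Sb02g006290 was 2.10 times that of Sb01g004210 (2.01 to 2.20), which no scaling changes. The primary-wall set was therefore not uniform between the libraries.

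Sb03g047220 was close to silent in both organs. It was listed with 10 reads and 0.190 RPKM (0.0913 to 0.350) in the rhizome and with 17 reads and 0.318 RPKM (0.185 to 0.509) in the shoot. The ratio of 1.67 has an interval of 0.723 to 4.08, so no difference was detectable at this depth. It contributed 0.0465% of the primary-wall RPKM in the rhizome and 0.0457% in the shoot.

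Within the primary-wall set, the weight shifted towards Sb02g006290 and Sb09g005280 in the shoot. Sb02g006290 took 39.6% of the primary-wall RPKM in the rhizome and 47.1% in the shoot, and Sb09g005280 took 21.4% and 25.4%. Sb02g010110 took 25.3% in the rhizome and 19.7% in the shoot, and Sb01g004210 took 13.6% and 7.71%. Sb02g010110 stood above Sb09g005280 in the rhizome, by a factor of 1.18 in RPKM (1.15 to 1.22), while Sb09g005280 stood above Sb02g010110 in the shoot, by a factor of 1.29 (1.26 to 1.32).

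Taken over the 8 listed genes, the order of the levels differed between the organs. In the rhizome library, Sb02g006290, Sb02g010110, Sb09g005280 and Sb01g004210 all stood above every secondary-wall gene. The lowest of them, Sb01g004210, was 6.53 times as high in RPKM as Sb01g019720 (5.97 to 7.14). In the shoot library, Sb01g019720 and Sb02g025020 ranked by RPKM directly below Sb02g006290 and above the other primary-wall genes. Sb02g006290 was 1.35 times as high in RPKM as Sb01g019720 (1.32 to 1.37), and Sb02g025020 was 1.07 times as high as Sb09g005280 (1.04 to 1.09). Sb03g034680 and Sb02g010110 came next in the shoot, with a quotient of 1.01 (0.984 to 1.04) that leaves their order undecided. Other neighbours in the 2 orders differed beyond counting error, except Sb03g034680 and Sb02g025020 in the rhizome. Both orders are by RPKM and depend on the listed gene lengths, an uncertainty that the counting intervals leave out. By reads, Sb09g005280 (17505) stood above Sb01g019720 (15665) and Sb02g025020 (13672) in the shoot.

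The make-up of CesA transcripts was mixed in the shoot and mostly primary-wall in the rhizome. Secondary-wall genes made up 45.1% of the summed CesA RPKM in the shoot and 4.65% in the rhizome. As shares of reads these were 39.4% (39.1% to 39.7%) and 3.81% (3.62% to 4.002%). The primary-wall total was 20.5 times the secondary-wall total in the rhizome and 1.22 times in the shoot, both in RPKM.

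**Figure D2:**
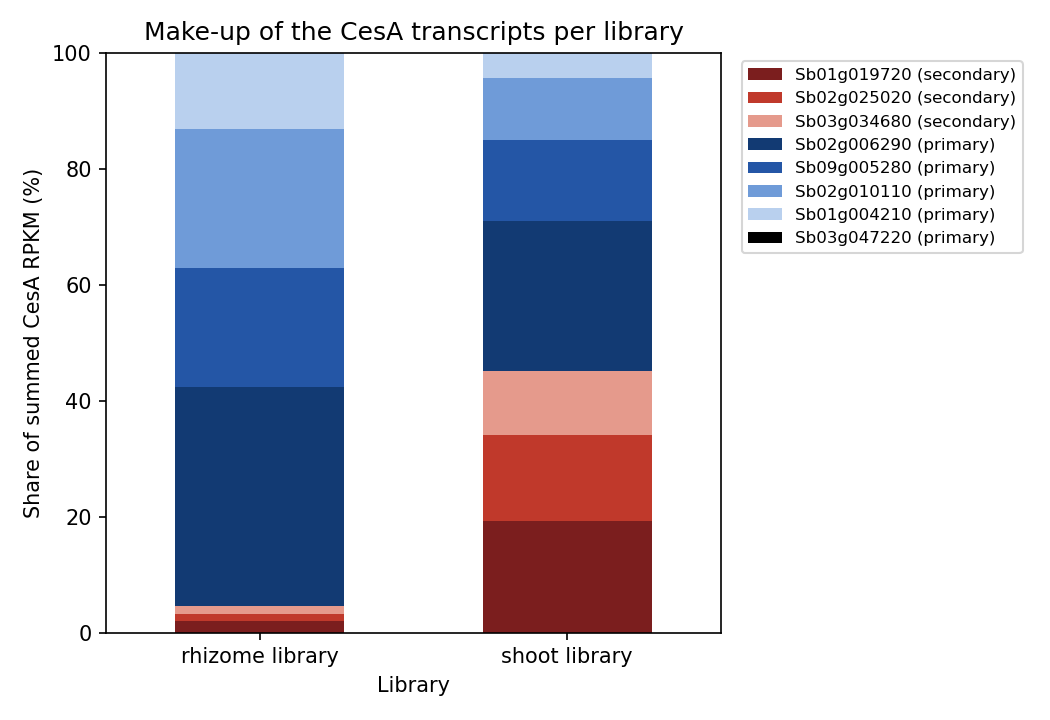
Share of the summed CesA RPKM, in percent, taken by each gene in the rhizome and shoot libraries. Secondary-wall genes are in red and primary-wall genes in blue, except Sb03g047220, which is black in the legend. The red part is 4.65% of the bar in the rhizome and 45.1% in the shoot, and Sb03g047220 is too low to be seen.

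Reads of the 8 listed CesA genes together were 0.227% of the rhizome library and 0.617% of the shoot library. The summed level of these genes was 429.6 RPKM in the rhizome against 1266 RPKM in the shoot. Of this gap of 836.4 RPKM, the secondary-wall genes made up 65.8% and the primary-wall genes 34.2%. The shoot over rhizome ratio of the secondary-wall total was 16.8 times that of the primary-wall total in RPKM and 16.4 times in reads (15.6 to 17.3), a quotient in which library scaling cancels. Across the 15 pairs of a secondary-wall with a primary-wall gene, this quotient ran from 11.3 to 36.8, so the classes did not overlap.

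Set beside all genes, the secondary-wall ratios lay in the upper tail and the primary-wall ratios did not. A difference was called by size, at least 4-fold with at least 5 RPKM in the higher library, a rule that uses no test. It called 9.02% of the 12826 genes with 5 RPKM or more in either library as higher in the shoot and 1.80% as higher in the rhizome. Of the 8 CesA genes, 7 reached 5 RPKM in either library. Sb03g047220 lay below 5 RPKM in both libraries and so could not be called. The 3 secondary-wall genes were called higher in the shoot, and none of the other 4 primary-wall genes was called in either direction. The same 3 were called at 8-fold, against 5.22% of the 12826 genes higher in the shoot and 0.756% higher in the rhizome, and at 16-fold, against 3.50% and 0.335%. At 2-fold, Sb02g006290 and Sb09g005280 were called as well, against 16.8% of genes higher in the shoot, but the counting intervals of both include 2. No member was called higher in the rhizome at 2-fold, where 11.0% of genes were.

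The median log2 ratio of rhizome to shoot was -4.83 over the 3 secondary-wall genes and -0.74 over the 5 primary-wall genes, which is the value of the near-silent Sb03g047220 itself. Over the 4 primary-wall genes with 5 RPKM or more in either library the median was -0.71. Over the 12765 genes with 5 RPKM or more in either library and reads in both, it was 0.21. Of the 7 members with 5 RPKM or more in either library, 6 were higher in the shoot in the values as deposited, where 40.6% of the 12826 genes were. With median-of-ratios scaling 7 of these 7 were, against 50.9% of genes, with TMM scaling 7, against 48.5%, and without the 100 most abundant genes 6, against 41.3%. A ratio as large as that of Sb03g034680, the smallest of the secondary-wall set, was reached by 365 of these genes (2.85%), and one as large as that of Sb02g025020 by 278 (2.17%).

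**Figure D3:**
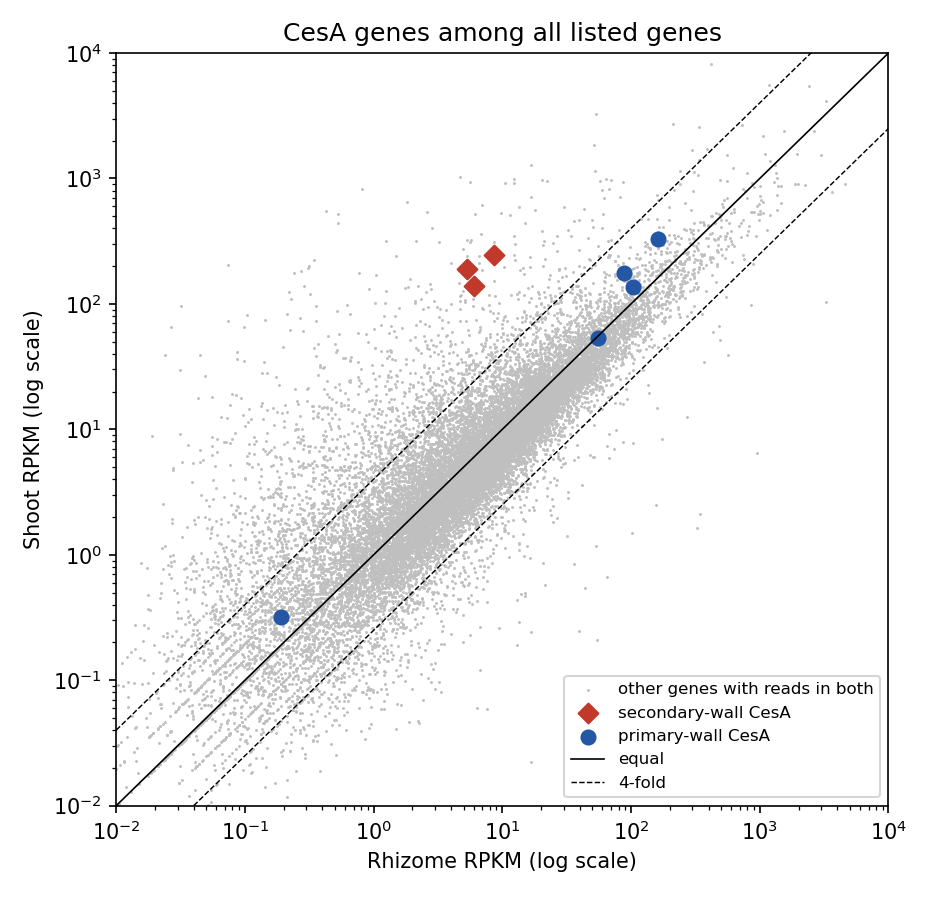
Shoot RPKM against rhizome RPKM, both on log axes, for genes with reads in both libraries (grey), secondary-wall CesA genes (red diamonds) and primary-wall CesA genes (blue circles). The secondary-wall genes lie together above the dashed 4-fold line at ratios of 22.8 to 35.4, and the primary-wall genes lie inside the 4-fold lines.

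Among genes with high shoot levels, a minority had a ratio as large as the smallest of the secondary-wall set. Of the 770 genes with 100 RPKM or more in the shoot library, 182 (23.6%) were at least 4-fold higher there and 80 (10.4%) had a ratio as large as that of Sb03g034680. This set was chosen by the shoot level, through which alone the secondary-wall genes enter it. Of the 12826 genes, 9.02% were called higher in the shoot at 4-fold. The shares among the 770 genes are thus a description only. The 245 genes whose shoot level fell in the range of the secondary-wall genes had a median of 151 RPKM in the rhizome. The 2571 genes whose rhizome level fell in the secondary-wall range had a median of 5.61 RPKM in the shoot. Both ranges at once held 7 genes, including the 3 secondary-wall genes that set them. Genes with still lower rhizome levels fall outside these ranges, so this count does not measure how rare such ratios are.

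The genes listed next to the secondary-wall members in ID order had smaller ratios. The 6 listed neighbours, all with ID numbers 10 away from the member, had shoot over rhizome ratios of 0.727 to 2.33 and none was called at 4-fold. Of the 12826 genes with 5 RPKM or more in either library, 9.02% were called higher in the shoot and 1.80% higher in the rhizome. No call among 6 genes is therefore ordinary. None of the 10 listed neighbours of the primary-wall genes was called either. Their highest levels were 65.0 RPKM in the shoot and 81.8 RPKM in the rhizome, both for the ID before Sb01g019720. Genome positions are not in the tables, so the distance and strand of these neighbours are unknown. By the number in the ID, the secondary-wall genes lie on chromosomes 1, 2 and 3, and the primary-wall genes on chromosomes 1, 2, 3 and 9.

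Each scaling multiplies all ratios by the same factor, so it could not change the contrast between the wall classes. Median-of-ratios scaling shifts every log2 ratio of rhizome to shoot by -0.22 and TMM scaling by -0.17. The ratios of the secondary-wall genes then ran from 26.6 to 41.2 and from 25.7 to 39.9. Those of Sb02g006290 and Sb09g005280 were both 2.35 with median-of-ratios scaling and 2.27 with TMM scaling.

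**Figure D4:**
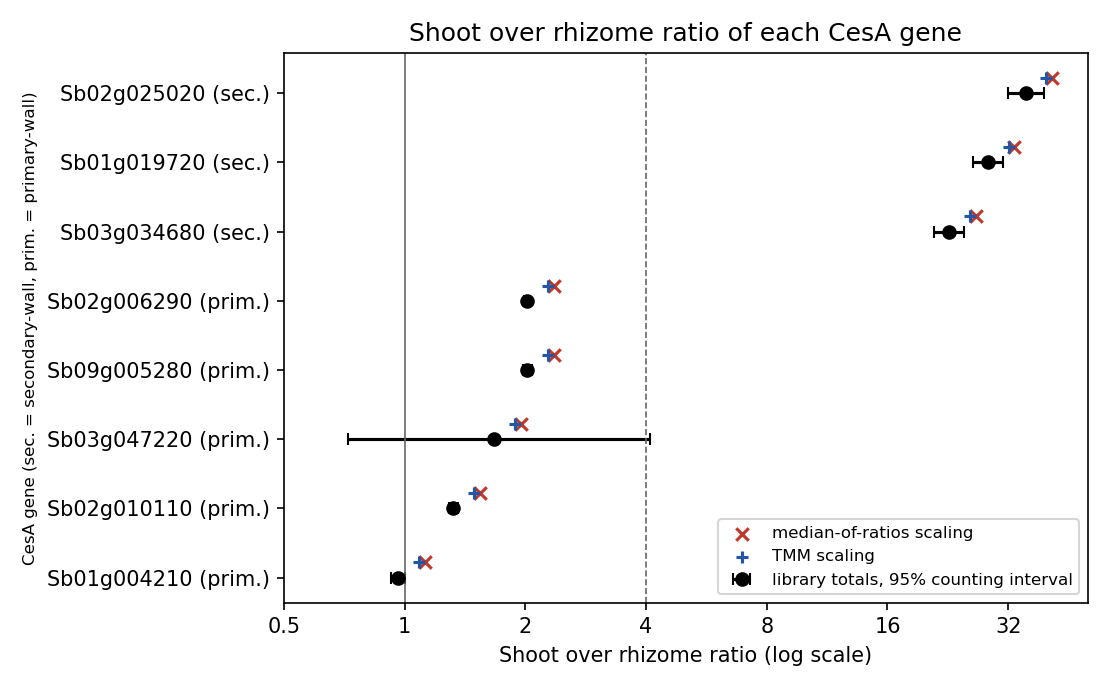
Shoot over rhizome ratio of each CesA gene on a log axis, with black points and 95% counting intervals for scaling by library totals, and crosses and plus signs for median-of-ratios and TMM scaling. The 3 secondary-wall genes lie beyond the dashed 4-fold line under each of these scalings, and Sb01g004210 lies below 1 with library totals and above 1 with both other scalings shown.

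CesA genes resemble each other in sequence, and how reads that fit several copies were assigned is not given in the sources used here. The levels of single members are uncertain to that extent. In the rhizome the secondary-wall genes had 380 to 541 reads each, beside 36755 reads for the primary-wall genes together, and the part of shared reads in these values was not tested.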

How the data were processed

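Total RNA of 1 rhizome and 1 shoot sample, extracted with TRIzol, was made into Illumina libraries, per the labels' protocols. The aligner, counting program, genome build, annotation and strand setting were not given in the sources used here. Each count in the deposited tables is a whole number of reads assigned to a gene, per the file headers. The RPKM values deposited by the authors equalled those recomputed from counts, listed lengths and the summed counts within 0.0001 for all 24371 genes. How lengths were measured is not stated. Levels between genes, RPKM shares and ratios of summed RPKM depend on the lengths, and ratios of a single gene between libraries do not. The IDs were used as given, and the species of the reference behind them is not stated.

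No test was run, since 1 library per organ leaves a count model without residual degrees of freedom. Ratios between libraries have exact conditional binomial (Clopper-Pearson) 95% intervals, levels exact Poisson intervals and shares exact binomial intervals. The size rule was 4-fold with 5 RPKM. The named genes are the 8 members. The 15 lists planned as name patterns for related cell-wall genes, green tissue and dividing tissue could not be filled without gene names, and 0 were used. Members and lists were chosen with earlier results of these data known. Median-of-ratios scaling used genes that reached 1 RPKM in each library. TMM factors came from edgeR 4.0.16 in R 4.3.3. Other values came from scipy 1.17.1, pandas 2.3.3 and numpy 2.4.6 in Python 3.11.15, with figures from matplotlib 3.10.9, and the code was tested on simulated data.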

Additional observations from a re-analysis of the deposited data

How the results depend on the processing

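The rhizome total of the secondary-wall genes, 3.50% of the shoot total as deposited, was 3.001% with median-of-ratios and 3.11% with TMM scaling, 3.83% without Sb02g025020 and 3.21% without Sb03g034680. The primary-wall total, 58.9% as deposited, was 50.5%, 52.3% and 58.1% with median-of-ratios scaling, TMM scaling and totals that omit the 100 most abundant genes of each library. It was 55.1% without Sb01g004210, 67.2% without Sb02g006290, 54.8% without Sb02g010110 and 62.1% without Sb09g005280. These values left the counting interval, and both totals stayed lower in the rhizome under each of these alternatives.

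The secondary-wall share of CesA RPKM in the rhizome, 4.65%, was 3.81% of reads. Leaving out Sb01g019720, Sb02g025020 or Sb03g034680 gave 2.71%, 3.45% and 3.28%. Leaving out Sb01g004210, Sb02g006290, Sb02g010110 or Sb09g005280 gave 5.34%, 7.47%, 6.12% and 5.84%. In the shoot the share, 45.1%, was 39.4% of reads, and leaving out the same genes gave 31.98%, 35.4% and 38.3%, then 47.1%, 60.8%, 50.5% and 52.4%. The changes on leaving out a gene follow from removing part of a sum.

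The count of called members was 3 under 6 of the 7 alternatives and 5 at 2-fold. Those 6 could not change it. The 3 called genes had ratios of 22.8 to 35.4 and shoot levels of 138 RPKM or more, and the largest primary-wall ratio was 2.02. The rhizome level of Sb01g004210 was 104% of the shoot level as deposited, and 89.3% and 92.4% with median-of-ratios and TMM scaling. Of the 32 alternative values of single members, 2 reversed, both of this gene and both also outside its counting interval. Of the others, 15 left the counting interval and 15 did not. No paired analysis was possible because only 1 library per organ exists here, and for the same reason no replicate could be left out. The related lists, which stayed empty, had no alternatives run. The shares of all genes higher in the shoot under other scalings and the median over primary-wall genes at 5 RPKM were added after seeing the data. Variation between plants is unknown, and the ratio of Sb03g047220, at 10 and 17 reads, is the least certain of the 8.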
